A study of Mus musculus with 9 samples.

Results

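Sox17-XEN is the endoderm-like cell line that was obtained from mouse embryonic stem cells (ESC) by inducing the transcription factor Sox17 with doxycycline (dox), and it was compared here with its parent line before induction. Of 37975 genes in the deposited table, 13588 entered the comparison, because both libraries had a valid estimate and at least 1 of them reached 1 FPKM (sequenced fragments scaled by transcript length and library size). Differences are Sox17-XEN minus no dox in log2(FPKM + 1), a scale that understates the change of weakly expressed genes. "Higher" and "lower" mean a difference of at least 2 log2 units, which is 4-fold in FPKM + 1. Each side is 1 library, so no difference has a replicate error, no test was possible, and a gene's difference is a description of these libraries.

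The study measured RNA in 9 libraries, 1 per group. Sox17-XEN carries the label genotype Sox17 overexpression and a dox history of 30 days with dox and 30 days without, in words that leave the order open to reading. It is taken here as dox first and then withdrawn, since another label calls the cells dox-indep. The parent line carries the same genotype, was taken at 0 h of dox, and served for a course of 100 ng/ml dox over 7, 21, 35 and 49 h and 6 days. The day 6 label holds the word SORT without detail. Wild-type XEN cells (line IM8AR) and wild-type R1 ESC, neither given dox, form a second pair with no library in common with the first. Per the labels, ESC grew on mouse embryonic fibroblasts with serum and LIF, and XEN cells grew in serum with medium that such fibroblasts had conditioned. The labels do not say which of these media Sox17-XEN received, nor whether the parent line is a single clone, so medium, time in culture and Sox17 history cannot be told apart in this comparison.

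Primitive endoderm is the cell layer that forms beside the pluripotent epiblast in the mouse blastocyst, under FGF signalling and the transcription factors Gata6, Sox17, Gata4 and Sox7. It gives rise to visceral endoderm, an absorptive epithelium, and to parietal endoderm, migratory cells that secrete the thick basement membrane of the yolk sac. XEN cells are stem cells of this lineage and in culture lie close to parietal endoderm.

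The 5 genes named for this comparison were Srgn, Aqp8, Stra6 and Hs3st1, which were higher in Sox17-XEN, and Utf1, which was lower. Their promoters are shown because these genes are among the 20 largest differences in their direction. Each sequence covers the 150 bases before the RefSeq start in build GRCm38.p6, read 5′ to 3′ on the gene's strand, at the start lying within 25 bases of a well-supported GENCODE M21 start. Srgn lies at chr10:62507758-62507907, minus strand, Aqp8 at chr7:123462144-123462293, plus strand, Stra6 at chr9:58128938-58129087, plus strand, Hs3st1 at chr5:39644632-39644781, minus strand, and Utf1 at chr7:139943706-139943855, plus strand. Capitals mark the motifs that were searched on both strands, namely GATAA (GATA factors), ACAAT (SOX factors), ATGCAAAT (octamer) and CACCC (KLF and SP factors).
Srgn: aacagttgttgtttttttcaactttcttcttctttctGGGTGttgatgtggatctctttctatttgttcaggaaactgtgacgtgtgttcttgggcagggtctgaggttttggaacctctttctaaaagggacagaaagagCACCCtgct
Aqp8: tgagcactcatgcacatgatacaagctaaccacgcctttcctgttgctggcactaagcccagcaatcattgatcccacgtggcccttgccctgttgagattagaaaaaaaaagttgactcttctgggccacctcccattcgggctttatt
Stra6: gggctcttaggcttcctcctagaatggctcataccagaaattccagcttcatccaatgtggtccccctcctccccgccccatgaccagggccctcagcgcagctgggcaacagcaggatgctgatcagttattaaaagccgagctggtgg
Hs3st1: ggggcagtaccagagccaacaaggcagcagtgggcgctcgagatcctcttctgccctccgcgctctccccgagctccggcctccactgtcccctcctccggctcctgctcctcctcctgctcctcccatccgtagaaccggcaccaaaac
Utf1: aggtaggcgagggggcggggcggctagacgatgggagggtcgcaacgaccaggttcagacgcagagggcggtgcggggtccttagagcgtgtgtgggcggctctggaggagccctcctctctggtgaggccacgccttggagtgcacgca
The Srgn window held 2 CACCC matches, 1 on each strand, and the other windows held none of these letters. Over all 32851 RefSeq promoter windows of this length, 13.3% held GATAA, 17.4% held ACAAT, 0.998% held the octamer and 37.4% held CACCC. The share of guanine and cytosine was 42% for Srgn, 48.7% for Aqp8, 57.3% for Stra6, 66.7% for Hs3st1 and 68.7% for Utf1. A count of motifs over all higher or lower genes is void, since a promoter was listed for 601 of 784 higher and 484 of 638 lower protein-coding genes, which is under 80%.

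Srgn encodes serglycin, a secreted proteoglycan core protein, and had the largest difference among genes outside the small and predicted RNAs. Its level was 0.781 FPKM without dox, 1.30, 9.49, 10.4 and 31.4 FPKM after 7, 21, 35 and 49 h of dox, 1517 FPKM on day 6 and 944 FPKM in Sox17-XEN, with 634 FPKM in wild-type XEN against 0.421 FPKM in R1 ESC. Both XEN libraries and day 6 stood far above all others. Aqp8, a water channel, was at 0.0736 FPKM without dox, 0.0132, 0.0847, 0.133 and 0.577 FPKM after 7, 21, 35 and 49 h of dox, 93.4 FPKM on day 6 and 344 FPKM in Sox17-XEN, with 104 FPKM in wild-type XEN against 0.112 FPKM in R1 ESC. Stra6, the receptor that takes up retinol, was at 0.165 FPKM without dox, 0.210, 2.18, 1.602 and 0.695 FPKM after 7, 21, 35 and 49 h of dox, 15.4 FPKM on day 6 and 324 FPKM in Sox17-XEN, with 116 FPKM in wild-type XEN against 0.219 FPKM in R1 ESC. It was still low at day 6 relative to Sox17-XEN, unlike Srgn. Hs3st1, a sulfotransferase that acts on heparan sulfate, was at 0.869 FPKM without dox, 0.604, 0.811, 0.899 and 3.27 FPKM after 7, 21, 35 and 49 h of dox, 141 FPKM on day 6 and 548 FPKM in Sox17-XEN, with 266 FPKM in wild-type XEN against 0.672 FPKM in R1 ESC. Utf1, a chromatin-bound factor of pluripotent cells, was at 351 FPKM without dox, 135, 155, 206 and 203 FPKM after 7, 21, 35 and 49 h of dox, 79.0 FPKM on day 6 and 0.428 FPKM in Sox17-XEN, with 0.351 FPKM in wild-type XEN against 242 FPKM in R1 ESC. The differences were 9.05 for Srgn, 8.33 for Aqp8, 8.12 for Stra6, 8.20 for Hs3st1 and -7.94 for Utf1.

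Of the 13588 genes, 862 were higher (6.34%) and 749 were lower (5.51%), and the median difference over all of them was 0.26. Subtracting the median difference of genes at 5 FPKM or more in both libraries (0.35 over 7865 genes) gave 574 higher (4.22%) and 1066 lower (7.85%), so that 35% of called genes were higher with this rescaling, against 53.5% as deposited. Many genes were near absent on 1 side. Below 1 FPKM without dox and at 10 FPKM or more in Sox17-XEN were 158 genes, and 24 of these reached 100 FPKM. The reverse held for 189 genes, 8 of which had been at 100 FPKM or more without dox. The higher genes held 15.4% of the summed FPKM of all compared genes in Sox17-XEN against 1.81% without dox. The lower genes held 0.402% in Sox17-XEN against 5.48% without dox. Nearest the threshold among higher genes were Rhox2g and Psd4 just inside, with Morc4 and Gna12 just outside, all within 0.01 log2 units of it. Among lower genes Dusp4 and Cdca7l were as close on the inner side, with Cpe (-1.99) and Aif1l (-1.99) just outside.

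**Figure D1:**
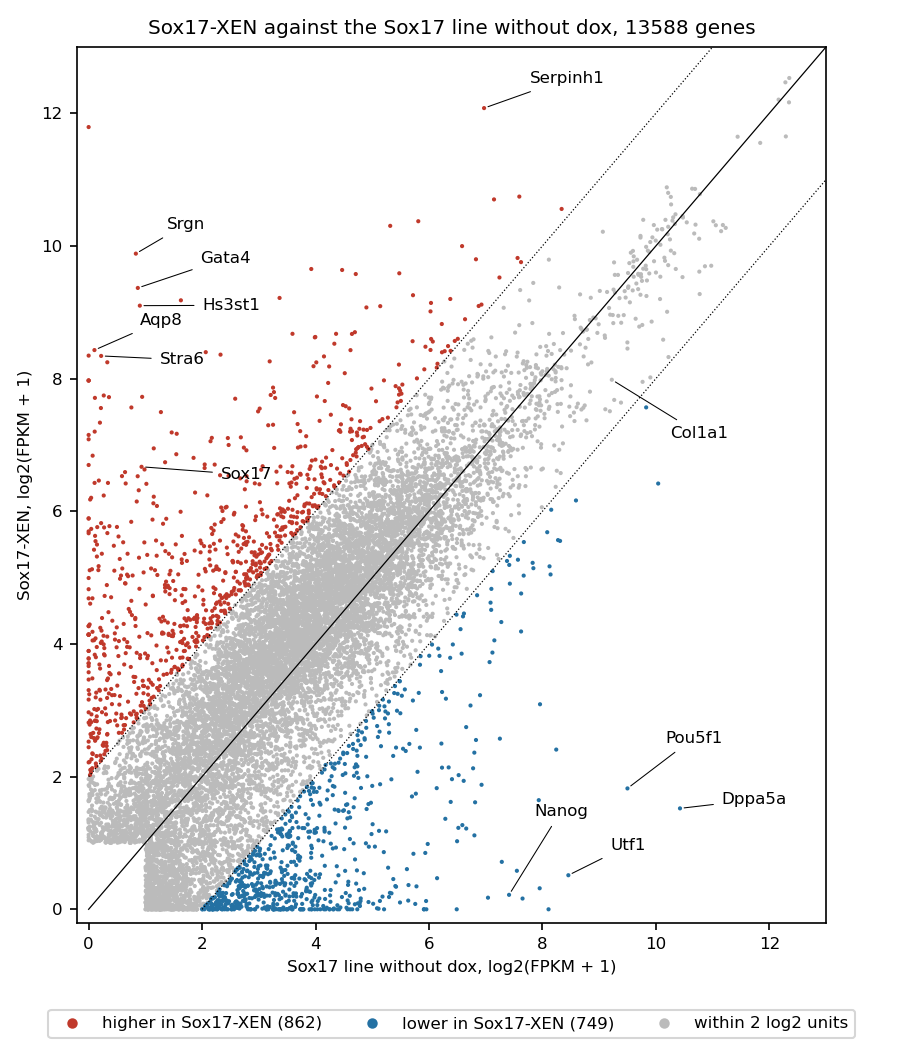
Level of 13588 genes in Sox17-XEN (vertical axis) against the Sox17 line without dox (horizontal axis), both in log2(FPKM + 1), 1 point per gene; the solid line marks equal levels and the dotted lines a difference of 2 log2 units. Srgn, Gata4, Hs3st1, Aqp8 and Stra6 stand at the upper left, and Utf1, Dppa5a, Pou5f1 and Nanog at the lower right, while the fibroblast collagen gene Col1a1 is below the line of equality and within the dotted lines; the red point near 12 at the left edge is a U6 small nuclear RNA copy.

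Several facts of the libraries bear on all values. The authors' lower confidence bound was 0 for 98.1% of values at 1 FPKM or more in Sox17-XEN and 98.9% without dox. Asking for intervals that do not overlap left 6 higher genes (Wfdc1, Pga5, Cdh5, Ptk6, Sox7 and Serpinh1) and 3 lower genes (Trh, Tdgf1 and Dppa5a). In Sox17-XEN 6 rows were failed estimates with too many fragments, among them the basement membrane genes Lama1, Lamb1, Lamc1 and Sparc, whose listed 0 is not a level. Absolute depth is unknown. From the steps of low values Sox17-XEN had about 59.2% of the depth of the no dox library, an estimate that rests on the 7.70% of 3090 low values that shared 1 ratio. Between the uninduced lines, no dox minus R1 ESC, 95% of the 8031 genes at 5 FPKM or more in both lay between -0.90 and 1.01, a spread over genes that gives no gene's own error.

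Fibroblast markers, listed because ESC grew on feeder cells, were detected in both libraries, and their source in Sox17-XEN was not tested. All 28 of them were compared, 0 were higher and 6 were lower (9 after rescaling), with a median of -1.20. For this list and each one below, the shares over all 13588 genes were 6.34% higher and 5.51% lower. After rescaling they were 4.22% and 7.85%. A count near these shares is no trait of its list. Their summed level was 1177 FPKM in Sox17-XEN and 3142 FPKM without dox, and 26 of 28 markers were at 1 FPKM or more in Sox17-XEN against 28 of 28 without dox. Along the course the sum was 1536, 2017, 2558 and 4289 FPKM after 7, 21, 35 and 49 h of dox and 296 FPKM on day 6. It was 1500 FPKM in R1 ESC and 67.4 FPKM in wild-type XEN. The courses of single genes given in this text were not corrected for these shifts, whose part in them was not tested. Col1a1, the main fibrillar collagen of fibroblasts, was at 252 FPKM in Sox17-XEN against 597 FPKM without dox, and Col1a2 at 184 FPKM in Sox17-XEN against 411 FPKM without dox. Wild-type XEN, grown in conditioned medium per the labels, had 0.490 FPKM of Col1a1 and 0.511 FPKM of Col1a2, against 148 and 142 FPKM in R1 ESC. The 6 lower markers were Ccl2, Ccl7, Mmp3, S100a4, Acta2 and Tagln. Against R1 ESC in place of the no dox library Ccl7 (-1.89) and Mmp3 (-1.91) were short of the threshold. In bulk RNA, fewer cells of a type and less RNA per cell cannot be told apart, and the part of fibroblast RNA in the results below was not tested.

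Transcription factors of primitive endoderm were higher as a group, 11 of 16 compared and 0 lower, with a median of 4.25. The same list had 12 of 16 higher and 0 lower in wild-type XEN against R1 ESC, where 9.15% of 13480 genes were higher and 7.27% lower. Gata4, a zinc finger factor of endoderm and heart, was at 0.824 FPKM without dox, 1.96, 4.57, 13.1 and 32.0 FPKM after 7, 21, 35 and 49 h of dox, 303 FPKM on day 6 and 659.6 FPKM in Sox17-XEN, with 337 FPKM in wild-type XEN against 0.655 FPKM in R1 ESC. Sox7, the close relative of Sox17, was at 0.256 FPKM without dox, 0.143, 0.998, 2.96 and 7.05 FPKM after 7, 21, 35 and 49 h of dox, 46.2 FPKM on day 6 and 303 FPKM in Sox17-XEN, with 79.4 FPKM in wild-type XEN against 0.105 FPKM in R1 ESC. Both were highest in Sox17-XEN among the 9 libraries. Hnf4a, a nuclear receptor factor that visceral endoderm requires, was at 25.4 FPKM in Sox17-XEN against 0.216 FPKM without dox. Cited1, a transcriptional co-activator, was at 68.6 FPKM in Sox17-XEN against 1.21 FPKM without dox, which was lower than its 161 FPKM at day 6 and 313 FPKM in wild-type XEN. Snai1 (difference 4.05), a repressor of E-cadherin, Tcf7l2 (3.72), a Wnt effector, and Foxq1 (3.66) were among the other higher members, with Gata6, Foxa2 and Sox17. Sox17 itself was at 101 FPKM in Sox17-XEN against 0.909 FPKM without dox, a level in which transgene and endogenous gene cannot be told apart. Sall4 and Hhex, both of which act in the endoderm lineage, were not past the threshold, at 62.3 FPKM in Sox17-XEN against 43.2 FPKM without dox and at 1.57 FPKM in Sox17-XEN against 2.85 FPKM without dox.

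Members of the SOX family were split, 4 higher and 4 lower of 11 compared (4 and 5 after rescaling). Beside Sox7 and Sox17, the higher ones were Sox21, a neural repressor of the SoxB2 group, and Sox5. Sox21 was at 0.253 FPKM without dox, 24.2, 33.7, 23.5 and 22.6 FPKM after 7, 21, 35 and 49 h of dox, 1.39 FPKM on day 6 and 9.97 FPKM in Sox17-XEN, so that the dox hours held more of it than Sox17-XEN. Sox2 (-6.87), Sox15 (-3.61), Sox11 (-2.46) and Sox4 (-2.42) were lower, with Sox4 at -1.41 against R1 ESC. Among Kruppel-like factors Klf4 was the 1 higher member of 13, at 236 FPKM in Sox17-XEN against 41.6 FPKM without dox, with 70.6 FPKM in wild-type XEN against 27.95 FPKM in R1 ESC. Klf2, like Klf4 a factor that supports self-renewal, was lower at 2.89 FPKM in Sox17-XEN against 39.4 FPKM without dox, as was Klf15. Klf5 was at 128 FPKM in Sox17-XEN against 34.2 FPKM without dox, short of the threshold at 1.88.

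Pluripotency transcription factors were lower in 17 of 25 compared members (18 after rescaling), with a median of -3.27, and Klf4 was the 1 that was higher. The list had 15 of 25 lower and 0 higher in wild-type XEN against R1 ESC. Pou5f1, which encodes Oct4, was at 723 FPKM without dox, 698, 927, 994 and 817 FPKM after 7, 21, 35 and 49 h of dox, 325 FPKM on day 6 and 2.54 FPKM in Sox17-XEN, with 3.22 FPKM in wild-type XEN against 1079.9 FPKM in R1 ESC. Nanog, the homeodomain factor of naive pluripotency, was at 169 FPKM without dox, 99.7, 87.0, 142 and 134 FPKM after 7, 21, 35 and 49 h of dox, 1.89 FPKM on day 6 and 0.163 FPKM in Sox17-XEN, with 0.325 FPKM in wild-type XEN against 169 FPKM in R1 ESC. Nanog was low already at day 6, when Pou5f1 was not. Zscan10 (-5.09), Nr0b1 (-5.07), Etv5 (-5.05), Zfp42 (-4.87) and Otx2 (-4.66) were among the other lower members. Zfp42, the Rex1 gene, kept a level of 7.52 FPKM in Sox17-XEN against 248 FPKM without dox. Esrrb had a failed estimate without dox.

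Other genes of pluripotent cells were lower in 24 of 34, with a median of -3.58 and 0 higher. Dppa5a, an RNA-binding protein gene, was at 1375 FPKM without dox, 1069, 823, 968 and 937 FPKM after 7, 21, 35 and 49 h of dox, 1733 FPKM on day 6 and 1.87 FPKM in Sox17-XEN, with 3.27 FPKM in wild-type XEN against 2625 FPKM in R1 ESC, and thus higher at day 6 than without dox. Dnmt3l, the catalytically inactive partner of the de novo DNA methyltransferases, had a like order, at 155 FPKM without dox, 179.6, 113, 100.0 and 125 FPKM after 7, 21, 35 and 49 h of dox, 252 FPKM on day 6 and 0.642 FPKM in Sox17-XEN, with 2.05 FPKM in wild-type XEN against 176 FPKM in R1 ESC. Alpl, the alkaline phosphatase of stem cells, was at 0.0912 FPKM in Sox17-XEN against 34.1 FPKM without dox, with 27.5 FPKM on day 6. Trh, which encodes thyrotropin-releasing hormone, was at 0.246 FPKM in Sox17-XEN against 247 FPKM without dox. Nodal and its co-receptor gene Tdgf1, both of the TGF-beta family pathway, were at 0.0542 FPKM in Sox17-XEN against 24.9 FPKM without dox and at 0.119 FPKM in Sox17-XEN against 199.9 FPKM without dox, and the Nodal antagonist genes Lefty1 (-5.44) and Lefty2 (-5.82) were lower as well. L1td1, an RNA-binding protein gene, was at 2.13 FPKM in Sox17-XEN and 46.2 FPKM in wild-type XEN.

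**Figure D2:**
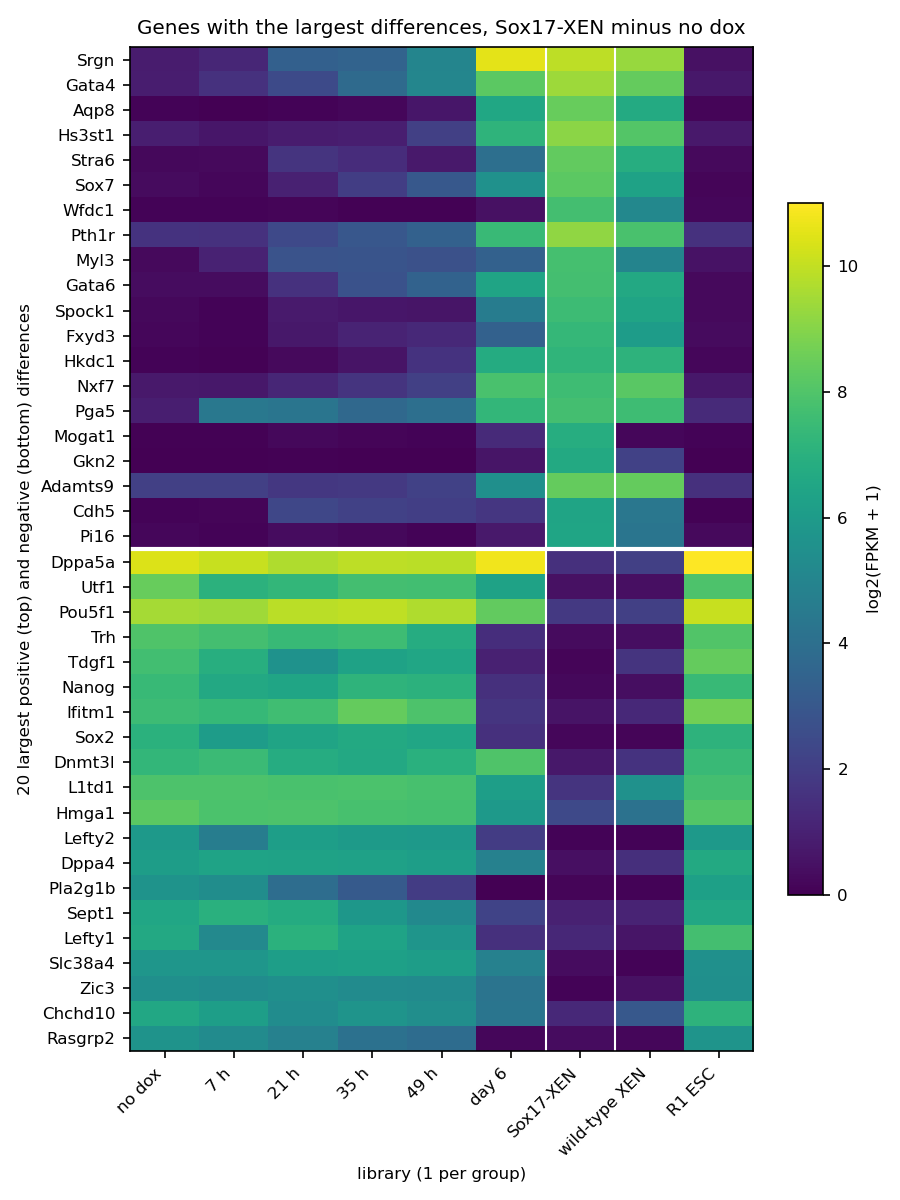
Level in log2(FPKM + 1), by colour, of the 20 genes with the largest positive and the 20 with the largest negative difference (rows) in the 9 libraries (columns, 1 library each). Most of the upper genes are dark through 49 h and bright in Sox17-XEN, whereas Wfdc1, Gkn2, Pi16 and Mogat1 are still dark at day 6, and Mogat1 is dark in wild-type XEN too; among the lower genes Dppa5a and Dnmt3l are bright at day 6.

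Of 11 FGF ligands 5 were lower and 2 higher, with a median of -1.46. Fgf4, the ligand by which epiblast cells induce primitive endoderm, was at 33.6 FPKM without dox, 14.4, 5.18, 4.84 and 5.15 FPKM after 7, 21, 35 and 49 h of dox, 0.210 FPKM on day 6 and 0.00605 FPKM in Sox17-XEN, with 0.0455 FPKM in wild-type XEN against 39.9 FPKM in R1 ESC. Fgf15 (-3.89), Fgf17 (-3.76), Fgf5 (-2.59) and Fgf8 (-2.35) were lower too. Fgf3, a ligand that parietal endoderm makes, was at 56.3 FPKM in Sox17-XEN against 0.683 FPKM without dox, with 7.13 FPKM in wild-type XEN against 0.562 FPKM in R1 ESC. Fgf10 was at 11.6 FPKM in Sox17-XEN against 1.86 FPKM without dox and was no longer past the threshold after rescaling (1.79).

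Of 24 receptor kinases of the FGF, PDGF and related families, 9 were higher and 3 lower (7 and 4 after rescaling). Fgfr3 was at 91.5 FPKM in Sox17-XEN against 0.503 FPKM without dox, with 46.1 FPKM in wild-type XEN against 0.363 FPKM in R1 ESC. Fgfr4 was at 40.1 FPKM in Sox17-XEN against 0.609 FPKM without dox, and Klb, the co-receptor beta-klotho, at 15.6 FPKM in Sox17-XEN against 0.0686 FPKM without dox. Fgfr1 and Fgfr2 went the other way, at 6.76 FPKM in Sox17-XEN against 44.1 FPKM without dox and at 1.27 FPKM in Sox17-XEN against 10.7 FPKM without dox, and Fgfr2 had been at 37.8 FPKM at day 6. Pdgfra, the PDGF receptor that marks primitive endoderm, was at 4.996 FPKM without dox, 2.52, 3.55, 5.62 and 10.1 FPKM after 7, 21, 35 and 49 h of dox, 134 FPKM on day 6 and 207 FPKM in Sox17-XEN. Kit was at 215 FPKM in Sox17-XEN against 8.25 FPKM without dox, and Mertk, a receptor for the clearance of dying cells, at 44.4 FPKM in Sox17-XEN against 1.46 FPKM without dox. Insr (3.03), Ephb4 (2.09) and Erbb2 (2.05) were higher as well, of which Ephb4 (1.74) and Erbb2 (1.70) were short of the threshold after rescaling. Axl was lower (-2.04) but differed by only -0.62 from R1 ESC, and its level of 1.82 FPKM in wild-type XEN was below the 13.1 FPKM of Sox17-XEN.

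Genes of ERK output and feedback were lower in 7 of 18 (9 after rescaling), with a median of -1.43, and 1 was higher. They were the ETS factor genes Etv5, Etv4 (-2.63) and Etv1 (-2.14), the inhibitors Spry4 (-2.80) and Spry1 (-2.40), the phosphatase gene Dusp4, which is at the threshold, and Ccnd1. Against R1 ESC Etv1 (-1.67) and Dusp4 (-1.54) were short of it. Ccnd1, the D-type cyclin, was at 109 FPKM without dox, 43.7, 44.9, 39.6 and 37.1 FPKM after 7, 21, 35 and 49 h of dox, 3.66 FPKM on day 6 and 3.36 FPKM in Sox17-XEN, with 0.364 FPKM in wild-type XEN against 51.5 FPKM in R1 ESC. Fos was the higher member, at 18.9 FPKM in Sox17-XEN against 3.52 FPKM without dox, and was not past the threshold after rescaling (1.79). In wild-type XEN against R1 ESC 4 of 18 were lower and 1 was higher. Dusp6, another ERK phosphatase gene, was at 5.81 FPKM in Sox17-XEN against 23.2 FPKM without dox (-1.83), with 37.7 FPKM in wild-type XEN against 19.14 FPKM in R1 ESC (0.94), opposite in sign in the pairs and short of the threshold in both.

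In the BMP and TGF-beta pathway 6 of 31 genes were higher and 2 lower (5 and 3 after rescaling), with a median of 0.37. Over all genes 6.34% were higher and 5.51% lower (4.22% and 7.85% after rescaling). Bmp2 and Bmp6, ligands, were at 48.5 FPKM in Sox17-XEN against 0.0819 FPKM without dox and at 8.38 FPKM in Sox17-XEN against 0.372 FPKM without dox, and Bmp4, the ligand of epiblast and extraembryonic ectoderm, was at 0.358 FPKM in Sox17-XEN against 14.8 FPKM without dox. Antagonists were among the higher genes. Nog, which binds BMP, was at 55.6 FPKM in Sox17-XEN against 0.165 FPKM without dox, and Fst, which binds activin, at 395 FPKM in Sox17-XEN against 14.96 FPKM without dox. Fst was at 7.41 FPKM at day 6, below its level without dox. The activin subunit gene Inhba was lower, at 7.95 FPKM in Sox17-XEN against 35.5 FPKM without dox, and stood at 0.0242 FPKM in wild-type XEN, but Sox17-XEN differed by only -0.59 from R1 ESC. Id2, a BMP target, was higher (2.24), though short of the threshold after rescaling (1.89) and against R1 ESC (1.40).

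Wnt ligands, targets and inhibitors were lower in 6 of 28 (7 after rescaling) and higher in 1, with a median of -0.63. Lef1 (-2.74) and Tcf7 (-3.13), effectors of the pathway, the Brachyury gene T, and Notum (-3.27), a secreted Wnt deacylase, were lower with Ccnd1 and Sfrp2 (-2.62). Frzb, a secreted Wnt antagonist, was the higher member, at 33.4 FPKM in Sox17-XEN against 1.72 FPKM without dox. In the pathway of LIF, the cytokine that keeps mouse ESC undifferentiated, 2 of 14 genes were higher. These were the receptor gene Lifr, at 86.6 FPKM in Sox17-XEN against 5.89 FPKM without dox, and Lif, at 37.1 FPKM in Sox17-XEN against 4.82 FPKM without dox. Pim2, a STAT3-responsive kinase gene, was lower at 4.23 FPKM in Sox17-XEN against 47.2 FPKM without dox, and Stat3 (1.64) was short of the threshold.

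Of 17 receptors and hormones that signal through G proteins, 3 were higher and 2 lower (3 and 3 after rescaling). Pth1r, the receptor for parathyroid hormone related peptide and a marker of parietal endoderm, was at 2.09 FPKM without dox, 1.997, 4.40, 6.99 and 9.63 FPKM after 7, 21, 35 and 49 h of dox, 175 FPKM on day 6 and 579 FPKM in Sox17-XEN, with 228 FPKM in wild-type XEN against 1.98 FPKM in R1 ESC. Ramp2, an accessory protein of the calcitonin receptor-like receptor, was at 179.5 FPKM in Sox17-XEN against 1.42 FPKM without dox, whereas Ramp3 of the same family was at 0.348 FPKM in Sox17-XEN against 8.81 FPKM without dox. Lpar3, a lysophosphatidic acid receptor gene, was at 53.1 FPKM in Sox17-XEN against 0.208 FPKM without dox. Among targets of the Hippo pathway Crim1 (3.82) and Ctgf (2.26) were higher and Axl was lower, of 13 compared (1 and 1 after rescaling). Ctgf was at 1.91 after rescaling and 1.54 against R1 ESC, both short of the threshold.

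**Figure D3:**
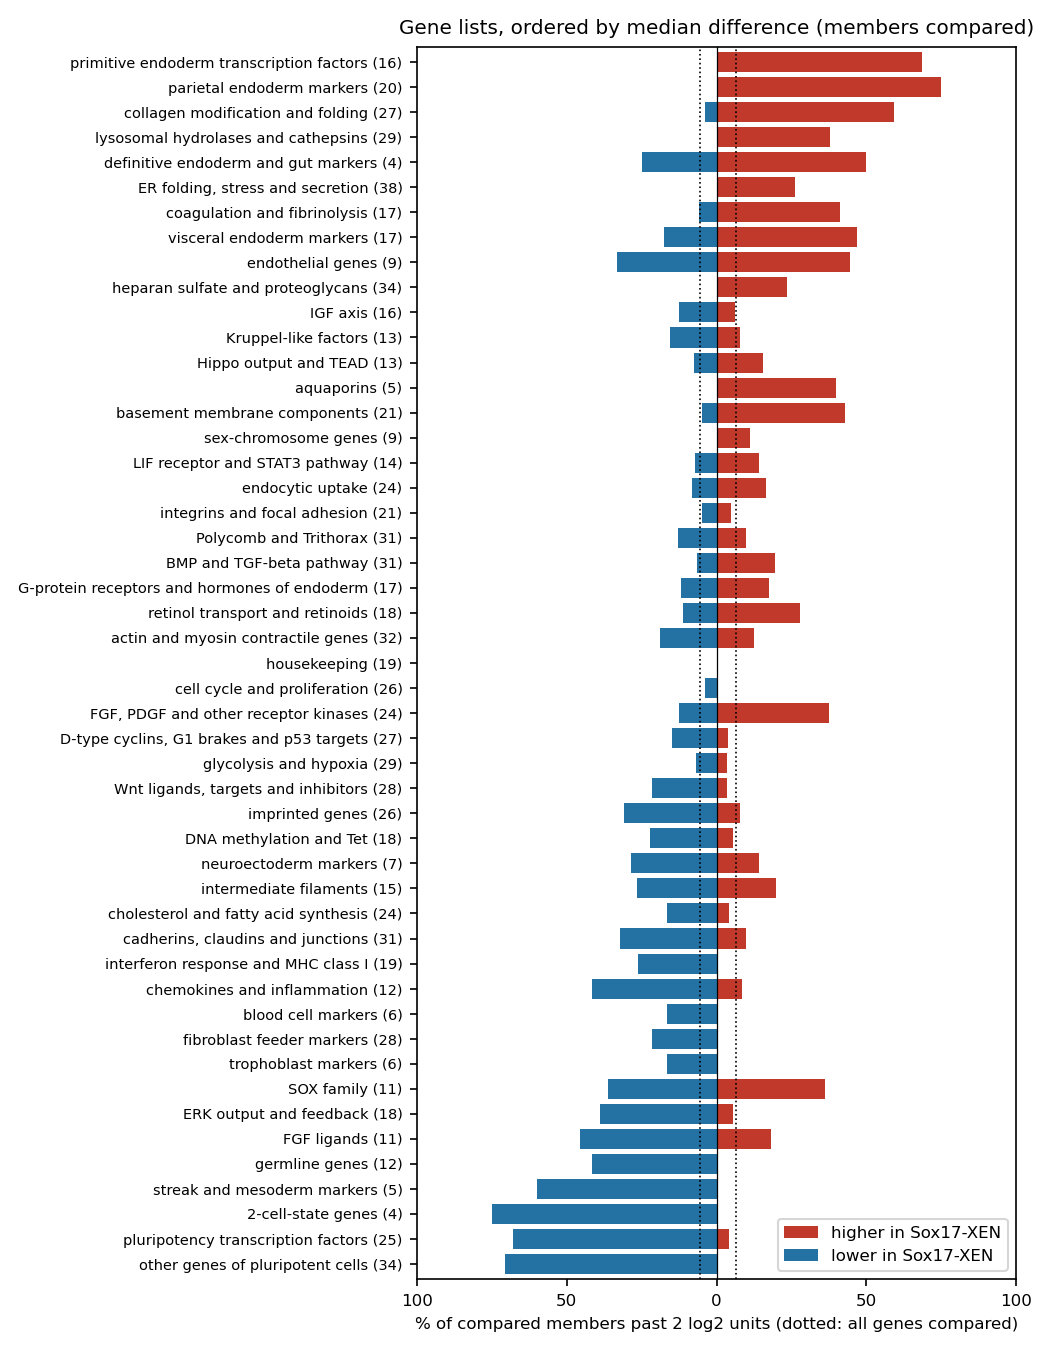
Share of the compared members of each gene list that were higher (bars to the right) or lower (bars to the left) by at least 2 log2 units in Sox17-XEN than without dox, with lists ordered by median difference and the number of compared members in brackets; dotted lines give the shares over all 13588 genes. Primitive and parietal endoderm lists have the longest bars on the right among lists of 10 or more genes, and lists of pluripotent cells the longest on the left, while the FGF receptor, visceral endoderm, endothelial and SOX lists extend both ways.

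Markers of parietal endoderm were higher in 15 of 20 compared members and lower in 0, with a median of 3.96 (13 higher after rescaling). Sparc and Lamb1 could not be compared. Pga5, a pepsinogen gene, was at 0.923 FPKM without dox, 19.9, 18.6, 12.1 and 15.3 FPKM after 7, 21, 35 and 49 h of dox, 153 FPKM on day 6 and 211 FPKM in Sox17-XEN, and was thus well above its no dox level at 7 h. Thbd, which encodes thrombomodulin, was at 8.77 FPKM without dox, 5.56, 8.44, 10.1 and 12.8 FPKM after 7, 21, 35 and 49 h of dox, 5.94 FPKM on day 6 and 208 FPKM in Sox17-XEN, and Plat, which encodes tissue plasminogen activator, was at 11.1 FPKM without dox, 3.31, 4.55, 6.15 and 7.45 FPKM after 7, 21, 35 and 49 h of dox, 13.6 FPKM on day 6 and 408 FPKM in Sox17-XEN. These genes were low at day 6, when Srgn and Lgmn were high. Krt8 and Krt18, the keratins of simple epithelia, were at 302 FPKM in Sox17-XEN against 15.2 FPKM without dox and at 179 FPKM in Sox17-XEN against 11.3 FPKM without dox. Fbln1, the gene of a secreted glycoprotein, was past the threshold as deposited and not after rescaling (1.80).

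Basement membrane components were higher in 9 of 21 and lower in 1 (7 and 3 after rescaling). Tinagl1, a matrix protein gene, was at 594 FPKM in Sox17-XEN against 9.31 FPKM without dox, Pxdn, a peroxidase that crosslinks collagen IV, at 322 FPKM in Sox17-XEN against 16.7 FPKM without dox, and Smoc1 at 84.8 FPKM in Sox17-XEN against 9.02 FPKM without dox. Nid2 (2.60), Lamb2 (2.69), Col4a1 (3.54), Col4a2 (2.33) and Hspg2 (2.14) were higher, of which Col4a2 (1.98) and Hspg2 (1.79) were short of the threshold after rescaling. Col18a1, the collagen that releases endostatin, was lower at 4.87 FPKM in Sox17-XEN against 113 FPKM without dox, with 0.136 FPKM in wild-type XEN against 73.4 FPKM in R1 ESC. For the 4 members with failed estimates, Lama1 was at 3.92 FPKM without dox and 1169 FPKM at day 6, Lamb1 at 58.1 and 1705 FPKM, and Lamc1 at 54.0 and 1134 FPKM. Sparc was at 478 FPKM without dox, 6058 FPKM at day 6 and 8107 FPKM in wild-type XEN.

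Genes that modify, fold and export collagen were higher in 16 of 27 and lower in 1, with a median of 2.41 (14 and 2 after rescaling). Their summed level was 11460 FPKM in Sox17-XEN and 1200.0 FPKM without dox. The prolyl hydroxylase subunit genes P4ha2 and P4ha1 were at 763 FPKM in Sox17-XEN against 25.2 FPKM without dox and at 545 FPKM in Sox17-XEN against 34.3 FPKM without dox, and P4hb at 1715 FPKM in Sox17-XEN against 192 FPKM without dox. The lysyl hydroxylase genes Plod1 (4.20) and Plod3 (2.99) were higher with Plod2 (5.17), and so were Leprel1 (5.09), a prolyl 3-hydroxylase gene, and Sec24d (2.43), a coat protein gene of vesicles that leave the endoplasmic reticulum. Serpinh1, the collagen chaperone, had the highest level on the list, at 4326 FPKM in Sox17-XEN against 125 FPKM without dox. Creb3l1, a membrane-bound transcription factor that acts on secretory and collagen genes, was at 14.6 FPKM without dox, 7.30, 14.2, 16.5 and 26.3 FPKM after 7, 21, 35 and 49 h of dox, 39.2 FPKM on day 6 and 291 FPKM in Sox17-XEN, with 9.56 FPKM in wild-type XEN against 6.58 FPKM in R1 ESC. Loxl3, a lysyl oxidase family gene, was lower (-2.57), with -1.64 against R1 ESC. Fibroblasts also make collagen and these enzymes, and the part of their RNA in these values was not tested.

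Of 34 genes of heparan sulfate and its proteoglycans 8 were higher and 0 lower (4 and 3 after rescaling). Beside Srgn and Hs3st1 these were Gpc6, a glypican gene, at 37.7 FPKM in Sox17-XEN against 3.37 FPKM without dox, and the enzyme genes Hs3st3b1 (2.49), Ndst2 (2.26), B3gat3 (2.24), Ext2 (2.07) and Extl2 (2.04), and of these 5 enzyme genes Hs3st3b1 alone was past the threshold after rescaling. Srgn and Hs3st1, named for this comparison, are among its largest differences, so their part in this count is no separate result. The syndecan genes Sdc3 (-1.87) and Sdc2 (-1.74) had negative differences short of the threshold. In the endoplasmic reticulum list 10 of 38 genes were higher and 0 lower (5 higher after rescaling), against 23 of 38 in wild-type XEN against R1 ESC. Kdelr3, a receptor that returns chaperones to the reticulum, was at 408 FPKM in Sox17-XEN against 19.6 FPKM without dox. Herpud1 (3.27), Sel1l (2.63) and Xbp1 (2.38) serve the disposal of misfolded proteins and its control, and Calr, a calcium-binding chaperone, was at 1507 FPKM in Sox17-XEN against 323 FPKM without dox, with 1.87 after rescaling.

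Lysosomal hydrolases and cathepsins were higher in 11 of 29 and lower in 0, with a median of 1.81 (5 higher after rescaling). Ctsl, cathepsin L, was at 1665 FPKM in Sox17-XEN against 141 FPKM without dox, Ctsh at 306 FPKM in Sox17-XEN against 8.14 FPKM without dox, and Lgmn, the protease legumain, at 344 FPKM in Sox17-XEN against 23.5 FPKM without dox. Lgmn was at 1490.5 FPKM at day 6 and 1575 FPKM in wild-type XEN, above Sox17-XEN. Ctsz (2.56), Ctsb (2.26) and Asah1 (2.23), an acid ceramidase gene, were higher as well, though Ctsb (1.91) and Asah1 (1.88) not after rescaling. Of 24 endocytic genes 4 were higher and 2 lower (4 and 3 after rescaling). Dab2, an adaptor of clathrin-mediated uptake, was at 8.52 FPKM without dox, 3.78, 6.41, 14.1 and 52.1 FPKM after 7, 21, 35 and 49 h of dox, 1133 FPKM on day 6 and 232 FPKM in Sox17-XEN, Lrpap1, the chaperone of the LDL receptor family, at 769 FPKM in Sox17-XEN against 43.5 FPKM without dox, and Cubn, the cubilin receptor, at 15.5 FPKM in Sox17-XEN against 0.448 FPKM without dox, with 939 FPKM at day 6. Folr1, a folate receptor gene, and Cav1, a caveolin gene, were lower (-2.55 and -2.16), with Cav1 at -0.90 against R1 ESC.

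Of 17 compared genes of coagulation and fibrinolysis 7 were higher and 1 lower (5 and 1 after rescaling). F3, tissue factor, was at 14.2 FPKM without dox, 7.94, 11.01, 15.4 and 34.2 FPKM after 7, 21, 35 and 49 h of dox, 59.3 FPKM on day 6 and 804 FPKM in Sox17-XEN, with 305 FPKM in wild-type XEN against 15.5 FPKM in R1 ESC. Serping1 (4.91), the C1 inhibitor gene, Procr (2.76), the endothelial protein C receptor gene, and Plaur (2.33), the urokinase receptor gene, were higher with Thbd, Plat and Tfpi. After rescaling Plaur (1.98) and Tfpi (1.87) were short of the threshold, as was Plaur against R1 ESC (1.90). Plau, which encodes urokinase, was lower at 1.01 FPKM in Sox17-XEN against 11.1 FPKM without dox, opposite to Plat, and differed by -1.83 from R1 ESC.

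In retinoid handling 5 of 18 genes, among them Stra6, which was named for this comparison, were higher and 2 lower (4 and 3 after rescaling, where Rbp4 was at 1.75). Beside Stra6, these were Cyp26a1, the enzyme that degrades retinoic acid, at 18.7 FPKM in Sox17-XEN against 0.535 FPKM without dox with 88.6 FPKM on day 6, Dhrs3 at 16.8 FPKM in Sox17-XEN against 1.66 FPKM without dox, Rbp4 at 6.63 FPKM in Sox17-XEN against 0.786 FPKM without dox and Ttr, at 4.77 FPKM in Sox17-XEN against a listed 0 without dox. Crabp1, a retinoic acid binding protein gene, and Rarg, a retinoic acid receptor gene, were lower at 2.69 FPKM in Sox17-XEN against 34.2 FPKM without dox and at 3.97 FPKM in Sox17-XEN against 40.3 FPKM without dox. Of 5 compared aquaporins 2 were higher, Aqp1 and Aqp8, and Aqp8 is a gene named for this comparison. Aqp1 was at 4.53 FPKM without dox, 2.43, 3.10, 3.09 and 2.86 FPKM after 7, 21, 35 and 49 h of dox, 1.51 FPKM on day 6 and 91.7 FPKM in Sox17-XEN, with 1.67 FPKM in wild-type XEN against 0.910 FPKM in R1 ESC, and so unlike Aqp8 was high in Sox17-XEN alone among the 9 libraries.

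Genes of junctions were lower in 10 of 31 and higher in 3, with a median of -0.95 (12 lower after rescaling). Cdh1, the E-cadherin of epithelia and ESC, was at 96.8 FPKM without dox, 52.7, 119, 152 and 124 FPKM after 7, 21, 35 and 49 h of dox, 105 FPKM on day 6 and 2.83 FPKM in Sox17-XEN, with 1.63 FPKM in wild-type XEN against 71.2 FPKM in R1 ESC. Claudin genes Cldn4 (-5.08), Cldn7 (-2.70) and Cldn3 (-2.03) were lower, as were the epithelial regulators Grhl2 (-3.95) and Esrp1 (-3.55) and the polarity gene Crb3 (-2.75). Cldn6 was at 11.3 FPKM in Sox17-XEN against 45.2 FPKM without dox, short of the threshold, and stood at 657 FPKM at day 6. Cdh5, the VE-cadherin of endothelium, was at 0.0753 FPKM without dox, 0.120, 4.06, 3.40 and 3.13 FPKM after 7, 21, 35 and 49 h of dox, 2.33 FPKM on day 6 and 85.1 FPKM in Sox17-XEN, with 19.8 FPKM in wild-type XEN against 0.0373 FPKM in R1 ESC, and the polarity gene Pard6b was at 57.4 FPKM in Sox17-XEN against 6.66 FPKM without dox.

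The 9 compared endothelial genes were split, 4 higher and 3 lower (3 and 3 after rescaling), and 11 others were below the minimum. Tek, the angiopoietin receptor gene, was at 29.7 FPKM in Sox17-XEN against 1.58 FPKM without dox, Esam at 31.9 FPKM in Sox17-XEN against 1.32 FPKM without dox and Egfl7 at 108 FPKM in Sox17-XEN against 23.5 FPKM without dox. Pecam1 was at 0.587 FPKM in Sox17-XEN against 11.6 FPKM without dox, and Eng at 1.98 FPKM in Sox17-XEN against 22.2 FPKM without dox. Egfl7 was short of the threshold after rescaling (1.81) and against R1 ESC (1.88), and Eng against R1 ESC (-1.95). Among 15 intermediate filament genes Krt23 (4.94) was higher with Krt8 and Krt18, and Ina, Krt42, Krt17 and Nefl were lower. Of 32 genes of actin and myosin 4 were higher and 6 lower (4 and 7 after rescaling). Myl3, a cardiac myosin light chain, was at 0.203 FPKM without dox, 1.08, 6.01, 6.21 and 5.56 FPKM after 7, 21, 35 and 49 h of dox, 9.59 FPKM on day 6 and 214 FPKM in Sox17-XEN, and with it Myh7 (3.81), Tnnc1 (3.59) and Myl7 (3.16) were higher, all genes of heart or slow muscle. Acta2, Actg2, Tpm2 and Tagln, genes of smooth muscle that activated fibroblasts also use, were lower, and Acta2 and Tagln are also on the fibroblast list. The muscle genes Mylpf (-4.44) and Actn3 (-2.80) were lower as well, so genes of striated muscle went both ways. Itga6, an integrin that binds laminin, was the higher member of 21 integrin and adhesion genes, at 230.4 FPKM in Sox17-XEN against 43.4 FPKM without dox, and Itga9 the lower one (2 lower after rescaling), at 0.280 FPKM in Sox17-XEN against 5.99 FPKM without dox, with a difference of -1.87 from R1 ESC.

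Markers of visceral endoderm were higher in 8 of 17 and lower in 3 (7 and 3 after rescaling), with a median of 1.31, and 10 others were below the minimum. Among the higher ones were Mttp (4.75), Hnf4a (4.44), Cubn (3.51), Soat2 (3.22), Ihh (2.85), Ttr (2.53) and Rbp4 (2.09). Of these, Rbp4 was short of the threshold after rescaling (1.75). With a pseudocount of 5, Mttp and Hnf4a stayed past the threshold, and Cubn, Soat2, Ihh, Ttr and Rbp4 did not. Apoe (-3.10) was among the lower ones. The summed level of the list was 217 FPKM in Sox17-XEN and 430.3 FPKM without dox, and 9412 FPKM at day 6. Apoe alone made up 32.1 FPKM of the sum in Sox17-XEN, 282 FPKM of that without dox and 6772 FPKM of that at day 6. Without Apoe, a split chosen after its values were seen, the sum as deposited was 185 FPKM in Sox17-XEN against 148 FPKM without dox. This gap is no larger than the median difference of 0.35 log2 units that rescaling removes, so no direction is read from it. Amn, the partner of cubilin, was at 0.680 FPKM in Sox17-XEN against 1.05 FPKM without dox, with 356 FPKM on day 6. Afp was at 0.663 FPKM and Apoa1 at 0.839 FPKM in Sox17-XEN, both under the minimum. Other lineages had few compared members. Of 6 blood cell genes 0 were higher and 1 lower, of 6 trophoblast genes 0 and 1 (each 2 lower after rescaling), of 5 streak and mesoderm genes 0 and 3, and of 7 neuroectoderm genes 1 (Zic1) and 2 (Zic2 and Zic5). Of 4 genes of definitive endoderm and gut, Nepn and Prox1 were higher, both at 6.19 FPKM in Sox17-XEN, and Trh was lower.

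**Figure D4:**
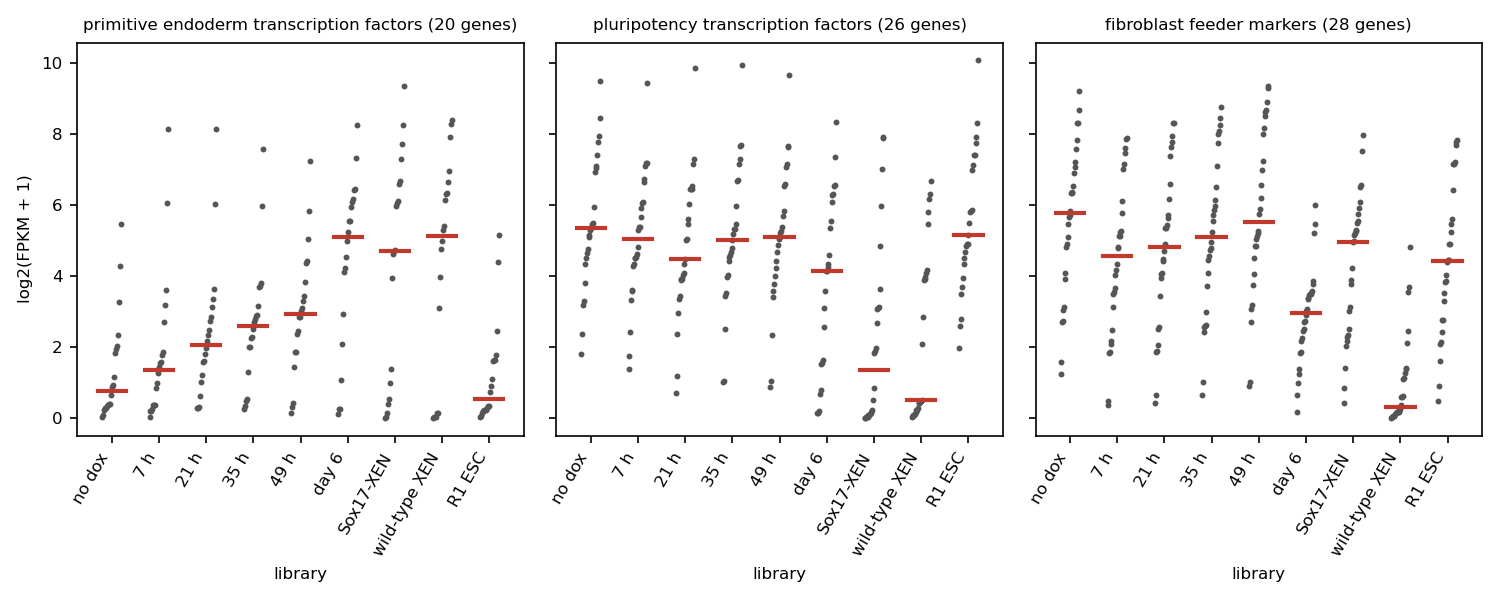
Level in log2(FPKM + 1) of each member of 3 gene lists (grey points) in each library (1 per group), with the median as a red bar. Primitive endoderm factors have their median between 4 and 6 at day 6, in Sox17-XEN and in wild-type XEN, that of pluripotency factors lies below 2 in both XEN libraries, and the fibroblast markers keep a median near 5 in Sox17-XEN while in wild-type XEN it is near 0.

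Of 18 genes of DNA methylation 4 were lower and 1 higher (4 and 0 after rescaling). Dnmt3b was at 19.12 FPKM in Sox17-XEN against 154 FPKM without dox, and Tet1 at 4.35 FPKM in Sox17-XEN against 45.6 FPKM without dox, whereas Tet3 was at 15.7 FPKM in Sox17-XEN against 2.74 FPKM without dox. Tet3 was short of the threshold after rescaling (1.82), and Tet1 against R1 ESC (-1.81). Dnmt1 and Dnmt3a, maintenance and de novo methyltransferase genes, were at 87.9 FPKM in Sox17-XEN against 66.3 FPKM without dox and at 47.2 FPKM in Sox17-XEN against 48.7 FPKM without dox. Of 31 Polycomb and Trithorax genes 4 were lower, namely Cbx7 (-3.12), Phf19 (-2.75), Jarid2 (-2.72) and Phc1 (-2.22). Cbx7 and its paralogue Cbx8 (2.19) encode exchangeable subunits of Polycomb complex 1. Cbx8 and Pcgf5 were among the higher genes as deposited, and none of the 31 was higher after rescaling. In wild-type XEN against R1 ESC 6 were higher and 4 lower.

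Imprinted genes were lower in 8 of 26 and higher in 2 (9 and 1 after rescaling). Slc38a4, an amino acid transporter gene, was at 53.9 FPKM without dox, 53.4, 71.4, 74.3 and 68.4 FPKM after 7, 21, 35 and 49 h of dox, 27.7 FPKM on day 6 and 0.271 FPKM in Sox17-XEN. Snrpn (-4.21), Phlda2 (-3.85), Mest (-3.68), Rian (-2.62), Cdkn1c (-2.44), Mirg (-2.15) and Grb10 (-2.14) were lower, and Sgce (2.97) and Plagl1 (2.18, after rescaling 1.84) higher. Rian was at 326 FPKM at day 6, 11.1 FPKM in Sox17-XEN and 0.103 FPKM in wild-type XEN, against 73.2 FPKM without dox. Y-linked genes were present on both sides of the Sox17 line and near 0 in wild-type XEN. Eif2s3y was at 131 FPKM in Sox17-XEN against 34.2 FPKM without dox, a difference of 1.91, short of the threshold. It was at 0.0789 FPKM in wild-type XEN against 45.4 FPKM in R1 ESC.

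Of 26 cell cycle genes 0 were higher and 1 was lower, Ccne1, a cyclin gene of the entry into DNA replication, at 15.6 FPKM in Sox17-XEN against 141 FPKM without dox. Among D-type cyclins, inhibitors and p53 targets 4 of 27 were lower and 1 higher (4 and 0 after rescaling). Trp53 was at 26.1 FPKM in Sox17-XEN against 196 FPKM without dox, Cdk6 at 0.173 FPKM in Sox17-XEN against 6.94 FPKM without dox, and Cdkn1b, which encodes the inhibitor p27, at 48.2 FPKM in Sox17-XEN against 9.44 FPKM without dox, which was short of the threshold after rescaling (1.89). Of 19 housekeeping genes 0 were past the threshold in either direction. Interferon response genes were lower in 5 of 19 and higher in 0. Ifitm1, an antiviral membrane protein gene, was at 186 FPKM without dox, 164, 198, 338 and 244 FPKM after 7, 21, 35 and 49 h of dox, 2.26 FPKM on day 6 and 0.496 FPKM in Sox17-XEN, with 1.43 FPKM in wild-type XEN against 408 FPKM in R1 ESC. Of 12 compared chemokine and inflammation genes 5 were lower, of which Ccl2 and Ccl7 are fibroblast markers here, and Tnfaip3 was higher.

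Of 24 genes of cholesterol and fatty acid synthesis 4 were lower and 1 higher (7 and 0 after rescaling), with a median of -0.85. In wild-type XEN against R1 ESC 4 of 25 were higher and 0 lower, with a median of 1.14, and the difference between the pairs was not tested. Idi1 and Fdps, early enzymes of isoprenoid synthesis, were at 4.42 FPKM in Sox17-XEN against 41.8 FPKM without dox and at 23.6 FPKM in Sox17-XEN against 135 FPKM without dox, and Sc4mol at 7.01 FPKM in Sox17-XEN against 33.8 FPKM without dox. Insig1, the sterol-regulated retention protein gene, was the higher member at 152 FPKM in Sox17-XEN against 30.3 FPKM without dox, but was short of the threshold after rescaling (1.94) and against R1 ESC (1.97). Of 29 genes of glycolysis and hypoxia Pfkp (-3.91) and Eno1 (-2.26) were lower and Egln3 (2.05) higher, the last short of the threshold after rescaling (1.70) and against R1 ESC (1.98). Of 16 genes of the IGF axis 1 was higher and 2 were lower, as deposited and after rescaling, with a median of 0.87. Igfbp2 was a lower member, at 4.95 FPKM in Sox17-XEN against 151 FPKM without dox.

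The levels of the called genes along the dox course are a description, since the no dox and Sox17-XEN libraries chose these genes. The median of the 862 higher genes was 3.16 FPKM without dox, 3.15, 4.36, 4.51 and 5.49 FPKM after 7, 21, 35 and 49 h of dox, 16.0 FPKM on day 6 and 36.8 FPKM in Sox17-XEN. It was 24.6 FPKM in wild-type XEN and 2.39 FPKM in R1 ESC. The median of the 749 lower genes was 11.6 FPKM without dox, 9.75, 9.67, 9.23 and 8.60 FPKM after 7, 21, 35 and 49 h of dox, 2.37 FPKM on day 6 and 0.404 FPKM in Sox17-XEN. It was 0.289 FPKM in wild-type XEN and 11.4 FPKM in R1 ESC. Of 859 higher genes with a value at day 6, 588 lay between the no dox and Sox17-XEN levels. A further 158 were above the Sox17-XEN level and 91 were below the no dox level. Counted apart from these classes, with overlap, 114 were below 1 FPKM. Of 748 lower genes 516 lay between the levels of these libraries, and 181 were at 10 FPKM or more at day 6.

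Wild-type XEN against R1 ESC is a comparison with no library in common, over 12805 genes compared in both pairs. Of the 795 genes higher in the Sox17 pair (6.21%), 561 were higher in the wild-type pair, which is 70.6% of the first list and 48.3% of the 1161 genes of the second (9.07%). Of the 726 lower genes (5.67%), 523 were lower in the wild-type pair, which is 72.0% of the first list and 54.7% of the 956 genes of the second (7.47%). Called in opposite directions were 7 higher and 8 lower genes of the Sox17 pair. Medium and feeder cells differ along with cell type in the wild-type pair, per the labels. Its lines also differ in Y-linked RNA, and 4 of 8 compared sex-chromosome genes were lower in that pair. The part of medium, feeder cells and line in the shared calls was not tested.

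Some genes were past the threshold in the Sox17 pair and within 1 log2 unit in the wild-type pair. They were chosen after their values were seen, and the difference between the pairs was not tested. Creb3l1 (ENSMUSG00000027230, chromosome 2, 91822484 to 91864659 in mm9) differed by 4.22 in the Sox17 pair and 0.48 in the wild-type pair. Aqp1 differed by 4.07 and 0.48, and Art3 by 4.15 and 0.94. Of the lower genes Apobec3 differed by -3.40 in the Sox17 pair and -0.42 in the wild-type pair, Idi1 by -2.98 and 0.02, and Apoe, the apolipoprotein E gene, by -3.10 and -0.55. Mogat1, a monoacylglycerol acyltransferase gene, was among the 20 largest differences, at 0.0501 FPKM without dox, 0.0419, 0.182, 0.111 and 0.0723 FPKM after 7, 21, 35 and 49 h of dox, 1.45 FPKM on day 6 and 113 FPKM in Sox17-XEN, but was at 0.137 FPKM in wild-type XEN against 0.0879 FPKM in R1 ESC. Gkn2, a gastrokine gene of stomach, was at 103 FPKM in Sox17-XEN against a listed 0 without dox, and at 3.41 FPKM in wild-type XEN against 0.0184 FPKM in R1 ESC. It was thus past the threshold in the wild-type pair too (2.11), at a lower level.

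**Figure D5:**
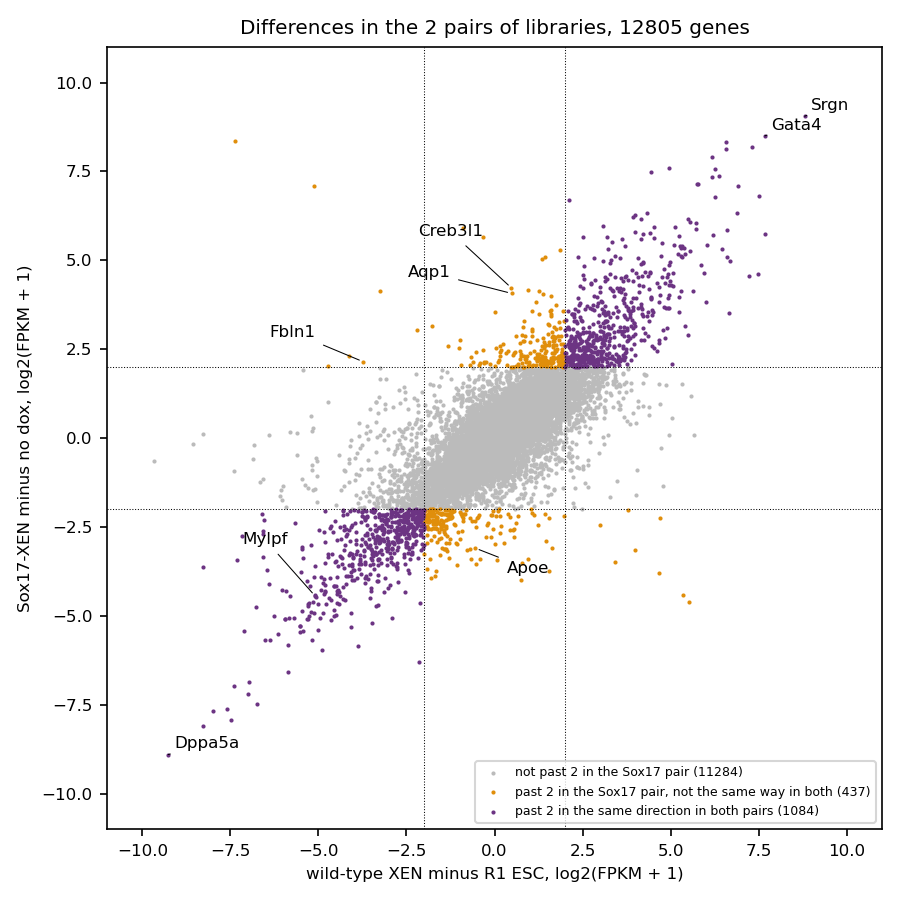
Difference in log2(FPKM + 1) of Sox17-XEN minus no dox (vertical axis) against wild-type XEN minus R1 ESC (horizontal axis) for 12805 genes, 1 point per gene, with dotted lines at 2 log2 units. Purple points (1084) are past 2 in the same direction in both pairs, including Srgn, Gata4 and Dppa5a, and orange points (437) are past 2 in the Sox17 pair and not in the same direction in the other, including Creb3l1, Aqp1, Apoe and Fbln1.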

How the data were processed

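RNA was sequenced from 9 mouse cell libraries, 1 per group. Per the submitters' processing notes, the tools were TopHat2 2.0.11, Cufflinks 2.1.2 and Cuffdiff (version not given in the sources used here), with build mm9. The authors deposited 1 table of FPKM values per gene with confidence bounds and a status, and no read counts, which leaves the absolute depth unknown and allows no counting intervals. How strand was used is not given in the sources used here, and the locus of 38.9% of rows is listed for a second row too, which makes values of overlapping genes uncertain. Among the largest differences such rows include Stra6, Gata6, Mogat1, Pou5f1, Sox2 and Dnmt3l.

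Values with a status other than OK in either library were treated as missing. Genes with at least 1 FPKM in Sox17-XEN or without dox were compared by the difference in log2(FPKM + 1), called at 2 log2 units. With 1 library a group no test was made. Where a symbol occurred in several rows, the row with the highest summed FPKM was used. GENCODE M21 gave the gene type of 32917 rows, 20214 of them protein-coding. Promoters are from RefSeq.

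Named genes were the 5 markers of the comparison, the 20 largest differences in each direction outside small RNAs, predicted genes, pseudogenes and ribosomal copies, up to 6 members per list by size of difference, and members that go against their list. Further list members were named after their values were seen. Some genes that the rule covers are not reported here. The members and the 49 gene lists were chosen with earlier results of these data known. Alternatives were other pseudocounts, filters and thresholds, rescaling by the median difference, protein-coding genes alone, unshared loci, non-overlapping intervals and R1 ESC in place of the no dox library. Python 3.11.15, numpy 2.4.6, pandas 2.3.3 and matplotlib 3.10.9 were used.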

Additional observations from a re-analysis of the deposited data

Results flagged for a closer look

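Fbln1 (ENSMUSG00000006369, chromosome 15, 85036378 to 85116965 in mm9), the gene of the secreted glycoprotein fibulin 1, was past 2 log2 units in opposite directions in the pairs of libraries. Its difference was 2.15 in Sox17-XEN against no dox, at 103 FPKM in Sox17-XEN against 22.5 FPKM without dox, and -3.73 in wild-type XEN against R1 ESC, at 0.421 FPKM in wild-type XEN against 17.8 FPKM in R1 ESC. After rescaling the difference in the Sox17 pair was 1.80, short of the threshold. In the wild-type pair 20 of 26 fibroblast markers were lower, with a median of -4.27, and the part of fibroblast RNA in the Fbln1 values was not tested. As deposited, Fbln1 was the only gene outside small and predicted RNAs, pseudogenes and ribosomal copies with calls of opposite direction. With 1 library per group, the difference between the pairs was not tested. Its level along the dox course was 22.5 FPKM without dox, 11.2, 11.4, 11.1 and 11.6 FPKM after 7, 21, 35 and 49 h of dox, 73.7 FPKM on day 6 and 103 FPKM in Sox17-XEN.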

How the results depend on the processing

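No paired analysis was possible because each group has 1 library, and for the same reason no replicate could be left out. The count of 862 higher genes was 1300 with a pseudocount of 0.1, 441 with 5, 574 after rescaling, 3088 at a difference of 1, 336 at 3, 521 over unshared loci, 1317 against R1 ESC and 6 with intervals that do not overlap. The count of 749 lower genes was 1567 with a pseudocount of 0.1, 193 with 5, 2184 at a difference of 1, 275 at 3, 452 over unshared loci and 3 with intervals that do not overlap. Other filters, protein-coding genes alone and, for lower genes, rescaling (1066) and R1 ESC (792) kept the counts within 1.5 times. In an alternative chosen after seeing the data, 803 of the higher and 576 of the lower genes were also past 2 against R1 ESC.

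For wild-type XEN against R1 ESC, 1234 higher genes became 767 after rescaling, and 980 lower genes became 1945 with a pseudocount of 0.1. At a difference of 1, the shared share of higher genes was 75.3% of the Sox17 pair and 59.3% of the wild-type pair, and of lower genes 69.2% of the wild-type pair. After rescaling, that of lower genes was 75.4% of the Sox17 pair and 58.0% of the wild-type pair. In 250 bases before the start, GATAA was in 22.6%, ACAAT in 27.7% and CACCC in 52.0% of all promoters, against 25.4%, 31.0% and 57.5% with 50 bases after it added. Of 302 genes that are called members of a list or among the largest differences, 105 were no longer past the threshold with a pseudocount of 5, 38 after rescaling and 25 against R1 ESC. The causes were not tested.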
